A study of Mus musculus with 4 samples.

Results

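The genes that make, cut and bind hyaluronan were followed in cells labelled as collecting lymphatic endothelium. The 8 genes are the synthases Has1, Has2 and Has3, the hyaluronidases Hyal1 and Hyal2, the receptor Cd44 and the matrix partners Vcan and Tnfaip6. They were chosen by name, and each was read from the probe sets that the platform annotation pairs with that gene alone, taking the one with the highest mean signal. This gave values for 7 of the 8, among 18193 genes on the array. Hyal1 had no values, because its 2 probe sets are each annotated to a second gene as well. Of the 7, 6 passed the filter on low signals (a mean of at least 26.7, the median of all probe sets that are not controls), as did 11693 genes in all, and Has3 did not.

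Mice carried flank tumours of human 293EBNA cells, a kidney-derived line, grown to 2000 mm3. The tumour cells held the empty expression vector APEX (the Apex group, 2 arrays) or the same vector with VEGFD (the VEGFD group, 2 arrays). VEGFD encodes a secreted protein that makes lymphatic and blood vessels grow. In both groups the draining collecting vessels were traced with Patent Blue V, dissected and sorted magnetically for endothelial cells. For the marker of the sort, the strain and age of the mice, and whether an array was 1 animal or a pool, nothing is given in the sources used here, and p-values measure the spread between these arrays. The extraction protocol names lymph node endothelial cells instead. With 2 arrays against 2, an exact permutation test cannot go below p = 0.33.

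Defining endothelial genes were low on 3 of the 4 arrays. Pecam1, the gene of the endothelial surface protein CD31, had signals of 2.92, 141, 3.25 and 2.22, and Cdh5, the gene of the endothelial cadherin, had 13.0, 146, 4.23 and 3.11. Wherever 4 signals are listed, the Apex pair comes before the VEGFD pair, with replicate 1 first in each. Both genes exceeded the filter level in Apex replicate 2 alone, and Prox1, the lymphatic master regulator, was at most 11.6 on any array. Col1a2, a collagen gene of fibroblasts, had 5555, 6846, 6122 and 6623, and the leukocyte gene Ptprc, read by a dim probe set that was not tested, was at most 13.0. The summed signal of 7 leukocyte markers was 1127, 1027, 735 and 734, above the pan-endothelial sum on Apex replicate 1 (725) and VEGFD replicate 2 (457). For this reason the arrays keep the names of their labels below. The array medians ran from 23.9 to 30.5.

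Hyaluronan is a long, unsulfated sugar chain of the extracellular matrix, built from alternating glucuronic acid and N-acetylglucosamine by synthases in the plasma membrane. Cells cut it with hyaluronidases, hold it through receptors such as CD44, and knit it into a matrix with proteoglycans and heavy chains of the serum protein inter-alpha-trypsin inhibitor. Lymphatic vessels are the main route by which hyaluronan leaves tissues, and the endothelium of lymphatic capillaries carries the hyaluronan receptor LYVE1.

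No hyaluronan gene separated the VEGFD arrays from the Apex arrays. For each of the 6 tested genes the groups overlapped, and the difference between group means was smaller than the larger of the differences between replicates within a group. In the limma fit (lmFit and eBayes, two-sided, Benjamini-Hochberg over all 11693 genes) 0 of the 6 passed an adjusted p of 0.05, with adjusted p from 0.825 to 0.980, and 0 of the 6 had an unadjusted p under 0.05. Over all tested genes 0 passed as well (0%), and 673 had an unadjusted p under 0.05 (5.76%), where 585 would arise by chance. Groups did not overlap in 38.5% of all tested genes, in 0 of the 6 hyaluronan genes, and in 76.1% of all tested genes the group difference was likewise smaller than a difference within a group.

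**Figure D1:**
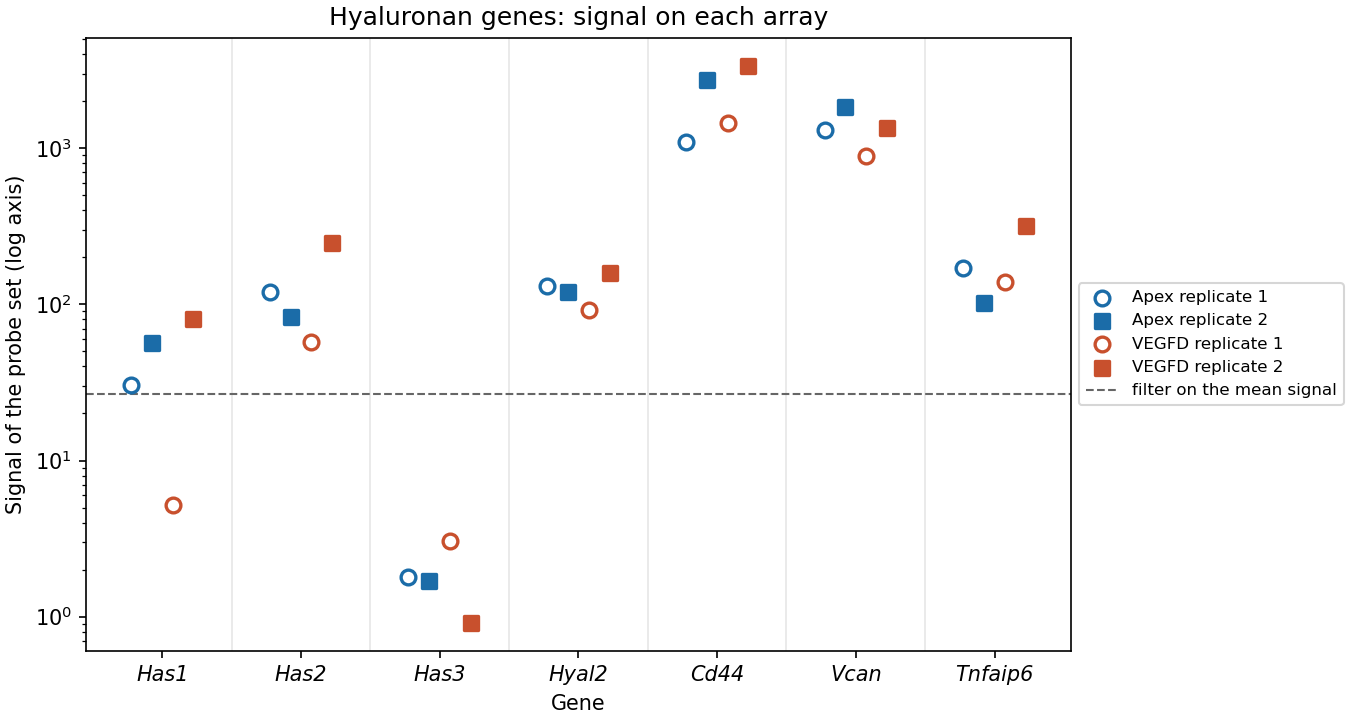
Signal of each hyaluronan gene (x axis) on the 4 arrays (y axis, log scale); each point is 1 array, with Apex in blue, VEGFD in orange, replicate 1 as an open circle and replicate 2 as a filled square, and the dashed line is the filter level of 26.7. VEGFD replicate 2 is the highest array in Has1, Has2, Hyal2, Cd44 and Tnfaip6, and Has3 lies below the line on every array.

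Among the synthases, Has2 encodes the enzyme on which the mouse embryo depends for most of its hyaluronan. Its signals were 120.0, 83.5, 57.0 and 246, so the highest and the lowest array were both in the VEGFD group. The log2 change (VEGFD minus Apex), computed like all changes from log2(signal + 16), was 0.25 ± 0.63 (SE, n = 2 and 2; 95% interval -1.33 to 1.83). The limma adjusted p was 0.935. A second Has2 probe set gave the same order of high and low within the VEGFD group, with signals of 82.4, 76.8, 50.6 and 208. The Has2 change was -0.67 when VEGFD replicate 2 was left out and 1.17 when VEGFD replicate 1 was, so its direction depended on which VEGFD array was kept.

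Has1, which encodes a related synthase, had signals of 30.6, 56.8, 5.22 and 80.2. VEGFD replicate 1 was the only array below the filter level, and VEGFD replicate 2 was again the highest. The log2 change was -0.37 ± 0.75 (SE; 95% interval -2.26 to 1.53; limma adjusted p = 0.921), with 0.72 when VEGFD replicate 1 was left out and -1.46 when VEGFD replicate 2 was. It was -0.93 with a pseudocount of 1 and -0.097 with 64. Has3, the gene of the third synthase, had signals of 1.79, 1.69, 3.04 and 0.91. These are among the dim values for which no limit against background is stated, and Has3 was not tested.

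Of the hyaluronidases, Hyal2 encodes an enzyme anchored at the cell surface that cuts long chains into intermediate fragments. Its signals of 130, 119, 91.4 and 158 spanned the narrowest relative range of the 6 tested genes. Both Apex values lay between the VEGFD values. The log2 change was -0.039 ± 0.32 (SE; 95% interval -0.84 to 0.76; limma adjusted p = 0.980), and centring each array on its median gave 0.084. That scaling moved the median change of all tested genes up by 0.12, from -0.036 to 0.087. Leaving out VEGFD replicate 1 gave 0.31 and leaving out Apex replicate 1 gave 0.019.

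Cd44, the gene of the main hyaluronan receptor of stromal and immune cells, was read by 3 probe sets above the filter level. The brightest had signals of 1087, 2723, 1456 and 3374. Here replicate 2 was more than 2-fold above replicate 1 in both groups, by 2.50 times in Apex and 2.32 times in VEGFD. On the log2(signal + 16) scale Cd44 was the 1 of the 6 at least 2-fold higher in Apex replicate 2 than in Apex replicate 1, against 2.59% of all tested genes. That difference was 1.31, but 0.68 with averaged probe sets and 0.51 with the probe set of highest mean log2 value, so it was short of 2-fold in both. The average took in a dim Cd44 probe set under the filter level, which lowers it. Its log2 change was 0.36 ± 0.58 (SE; 95% interval -1.10 to 1.83; limma adjusted p = 0.905), -0.29 without Apex replicate 1 and -0.24 without VEGFD replicate 2. The next probe set (1554, 2221, 1592 and 3191) had a change of 0.28. The remaining one (188, 325, 305 and 983) had 1.10, and in it too the groups overlapped. All 3 had their highest signal in VEGFD replicate 2, and the last Cd44 probe set was at most 2.50 on any array.

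Vcan encodes versican, a large proteoglycan that binds hyaluronan through its head domain. The brightest of its 8 probe sets had signals of 1301, 1830, 895 and 1338. VEGFD replicate 2 lay just above Apex replicate 1, which is the overlap between the groups. The log2 change was -0.49 ± 0.31 (SE; 95% interval -1.26 to 0.28; limma adjusted p = 0.825), and it ran from -0.77 to -0.20 with 1 array left out. The probe sets did not share a direction. Of the other 2 above the filter level, one (905, 1007, 776 and 1252) had a change of 0.046 and one (129, 336, 171 and 187) had -0.21. With the mean over all 8 probe sets the Vcan change was -0.30, and there both VEGFD values lay below both Apex values. Only 3 of the 8 passed the filter, and the dim ones had changes of -0.53, -0.55, -0.60, -0.057 and -0.0097. Dim signals thus have a part in that separation, which is no check on the brighter probe sets.

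Tnfaip6 encodes a secreted hyaluronan-binding protein of inflamed and remodelling tissue, which moves heavy chains of inter-alpha-trypsin inhibitor onto hyaluronan. Its signals were 170, 102, 140 and 318. The VEGFD replicate 2 value stood above the other 3, and VEGFD replicate 1 lay between the Apex values. This gave the largest change of the 6 tested genes in size with the pseudocount of 16, 0.62 ± 0.45 (SE; 95% interval -0.52 to 1.76; limma adjusted p = 0.825). It was 0.073 without VEGFD replicate 2, 0.30 without Apex replicate 2 and 1.17 without VEGFD replicate 1. With a pseudocount of 1 the Has1 change (-0.93) was larger in size than that of Tnfaip6 (0.67). Tnfaip6 had 1 probe set, so no other probe set checks it.

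**Figure D2:**
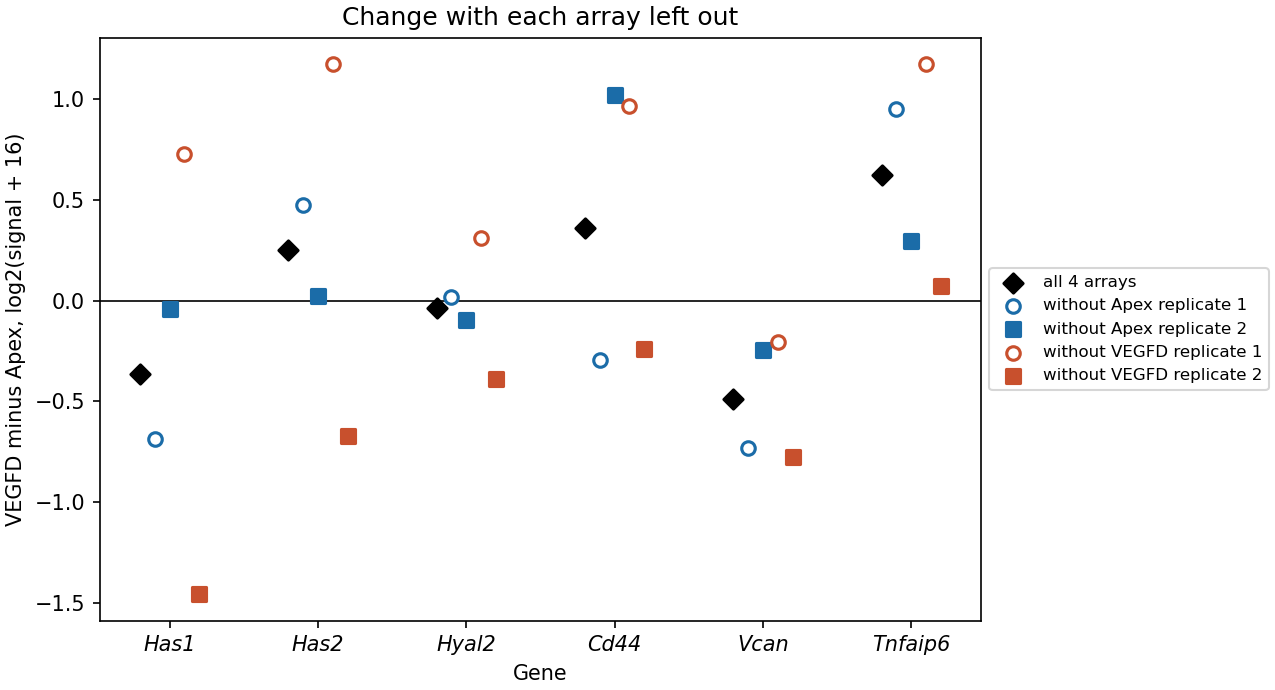
Change (VEGFD minus Apex, y axis, from log2(signal + 16)) of the 6 tested hyaluronan genes (x axis), with all 4 arrays (black diamond) and with each array left out in turn; points are fitted changes. Has1, Has2, Hyal2 and Cd44 cross 0 when 1 array is left out, Vcan stays between -0.77 and -0.20, and Tnfaip6 between 0.073 and 1.17.

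Counted over the group, 3 of the 6 tested genes (Has2, Cd44 and Tnfaip6) had a positive change and 3 (Has1, Hyal2 and Vcan) a negative one, or 4 and 2 after median centring. Of all tested genes 46.3% had a positive change. The median of the 6 was 0.11, against -0.036 over all tested genes. Without VEGFD replicate 1, 5 of the 6 were positive with a median of 0.84, and without VEGFD replicate 2, 5 of the 6 were negative with a median of -0.53. Genes at least 2-fold apart without overlap numbered 483 of 11693 (4.13%), 131 higher and 352 lower in VEGFD (197 and 262 after median centring), and 0 of the 6 were among them.

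The 2 VEGFD arrays differed from each other in the same direction in all 6 genes. How many of all tested genes were higher in VEGFD replicate 2 was not counted, so this has no share to be read against. VEGFD replicate 2 was at least 2-fold above VEGFD replicate 1, on the log2(signal + 16) scale, in 4 of the 6 (Has1, Has2, Cd44 and Tnfaip6). Over all tested genes this held for 5.62%. Has1 differed by 2.18, Has2 by 1.84, Cd44 by 1.20, Tnfaip6 by 1.10, Hyal2 by 0.70 and Vcan by 0.57. The size for Has1 depended on the pseudocount, from 1.06 with 64 to 3.71 with 1, because its VEGFD replicate 1 signal was so low, and that for Vcan was 0.29 with averaged probe sets. VEGFD replicate 2 was the highest of the 4 arrays in 5 of the 6, against 29.6% of all tested genes. The pattern was noticed after the values were seen and has 1 array on each side, so it carries no test. Under other pseudocounts, scalings and choices of probe set, 5 of the 6 were highest in VEGFD replicate 2 in every case, and the number at least 2-fold apart was 3 or 4. Averaging took in dim probe sets of Cd44 and Vcan, which lowers their differences.

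**Figure D3:**
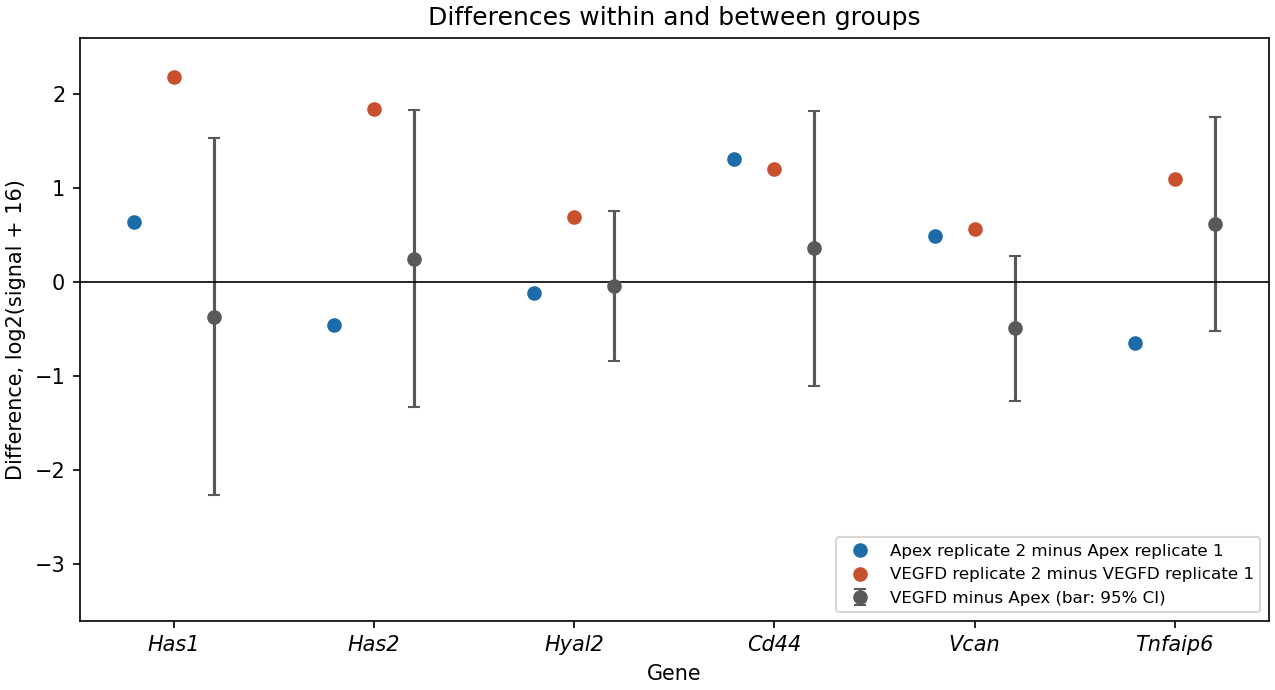
Differences on the log2(signal + 16) scale (y axis) for the 6 tested hyaluronan genes (x axis): Apex replicate 2 minus replicate 1 (blue), VEGFD replicate 2 minus replicate 1 (orange), and VEGFD minus Apex with its 95% interval from the limma fit (grey). The orange points are all above 0, from 0.57 to 2.18, and every grey interval includes 0.

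Markers of other cells also moved between the VEGFD arrays. The summed signal of 8 smooth muscle and pericyte markers was 7194 and 8640 in the Apex arrays, 8735 in VEGFD replicate 1 and 16179 in VEGFD replicate 2, and 0 of its 7 tested genes passed. The sum of 8 fibroblast markers was 17112 and 17910 in the VEGFD arrays. For 10 pan-endothelial markers it was 1184 and 457, for 7 mesothelial markers 602 and 316, and for 6 keratinocyte and epithelial markers 539 and 164. Leukocyte sums were nearly equal in the VEGFD arrays (735 and 734), while the sum of 7 lymphatic markers was 1501 and 2060. Of that list, Prox1 (3.19 and 5.94) and Lyve1 (22.0 and 14.5) were below the filter level in both VEGFD arrays, so other genes made up most of the sum. The sum of 4 adipocyte markers was 3801 and 3109. No marker was listed at 0. The part of these cells in the hyaluronan signals was not tested, and in such bulk samples fewer cells of a type cannot be told apart from less RNA per cell.

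The promoters of 3 of the 4 genes that were 2-fold apart between the VEGFD arrays are shown. Between the Apex arrays these 4 genes did not share a direction. There replicate 2 minus replicate 1 was 0.65 for Has1 and 1.31 for Cd44, but -0.45 for Has2 and -0.65 for Tnfaip6. Promoters were found for 6 of the 8 genes in the RefSeq table (GRCm38.p6), and not for Has2 and Has3. Each stretch is the 250 bases before the annotated start, 5′ to 3′ on the gene's strand: Tnfaip6 at chr2:52037863-52038112 on the plus strand, Cd44 at chr2:102901666-102901915 and Has1 at chr17:17855189-17855438, both on the minus strand. Capitals mark matches on either strand to the AP-1 motif (TGANTCA), the cyclic AMP response element (TGACGTCA), the CCAAT box (CCAAT) and the TATA box (TATAAA), whose letters do not overlap here.
Tnfaip6: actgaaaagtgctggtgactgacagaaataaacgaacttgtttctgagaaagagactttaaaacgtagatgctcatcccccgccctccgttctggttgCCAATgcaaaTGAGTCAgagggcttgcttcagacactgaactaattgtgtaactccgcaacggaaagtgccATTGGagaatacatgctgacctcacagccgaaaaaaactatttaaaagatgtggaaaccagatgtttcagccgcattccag
Cd44: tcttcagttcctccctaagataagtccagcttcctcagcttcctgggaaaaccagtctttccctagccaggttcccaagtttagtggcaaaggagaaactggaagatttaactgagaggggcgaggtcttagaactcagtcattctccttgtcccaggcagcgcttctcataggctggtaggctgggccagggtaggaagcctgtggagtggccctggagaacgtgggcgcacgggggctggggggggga
Has1: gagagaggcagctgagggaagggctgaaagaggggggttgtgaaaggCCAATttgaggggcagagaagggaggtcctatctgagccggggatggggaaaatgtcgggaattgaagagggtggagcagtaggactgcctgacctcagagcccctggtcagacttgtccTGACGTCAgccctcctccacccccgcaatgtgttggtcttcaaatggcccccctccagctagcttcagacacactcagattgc
The Tnfaip6 stretch held an AP-1 match beginning 142 bases before the start and 2 CCAAT matches, at 152 and 81 bases. The Has1 stretch held a cyclic AMP response element match at 83 bases and a CCAAT match at 203 bases. The Cd44 stretch held no match to any of the 4 motifs. Of 32851 promoters of this length, 6.75% held the AP-1 letters, 1.55% the cyclic AMP response element, 33.8% CCAAT and 12.4% TATAAA. These matches describe letters in a window and show no binding.

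The genes whose pattern over the 4 arrays was nearest to Tnfaip6, taken because its change was largest with the pseudocount of 16, by root mean square distance of centred log2 values, were Mphosph6 (a distance of 0.037), Egfr (0.066) and Phactr1 (0.084). Mphosph6 had signals of 175, 110, 147 and 316. Egfr, which encodes the epidermal growth factor receptor, had 310, 195, 231 and 547. In all 3, as in Tnfaip6, VEGFD replicate 2 was highest and Apex replicate 2 lowest, and the groups overlapped. The genes were picked for their likeness over these same 4 values, so the shared order follows from the choice.

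Enzymes that supply the sugar precursors were examined next, since hyaluronan synthases draw on UDP-glucuronic acid and UDP-N-acetylglucosamine, which other glycans use as well. All 7 listed genes were tested and 6 had a positive change, with a median of 0.49 against -0.036 over all tested genes. None of the 7 passed in limma (adjusted p from 0.822 to 0.980), and 2 had an unadjusted p under 0.05. In 4 of the 7 both VEGFD values lay above both Apex values, against 16.6% of all tested genes. These 4 were Uap1, Gfpt2, Gnpnat1 and Ugdh, of which the latter pair was named after the values were seen.

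Uap1 encodes the last enzyme on the way to UDP-N-acetylglucosamine, and its 4 signals were 567, 420, 968 and 1690. The log2 change was 1.36 ± 0.35 (SE; 95% interval 0.49 to 2.23), the largest of the list, and the 1 change of the 7 that was 2-fold without overlap (1.12% of all tested genes in the higher direction). The limma adjusted p was 0.822 (unadjusted p = 0.0096), and over the alternatives it ran from 0.0270 to 0.999. The lowest of these was without VEGFD replicate 1, where the change was 1.76 and passed with a lone VEGFD array assumed to vary like the others. Without VEGFD replicate 2 the change was 0.96.

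Gfpt2, the gene of an enzyme at the entry to the hexosamine pathway, had signals of 546, 212, 797 and 590. The VEGFD replicate 2 value lay only just above Apex replicate 1. Its change of 0.97 ± 0.47 (SE; limma adjusted p = 0.822) became 0.32 without Apex replicate 2 and 1.62 without Apex replicate 1. Gnpnat1, which encodes the acetyltransferase of the same pathway, had 408, 368, 647 and 596 and a change of 0.66 ± 0.22. Ugdh, which encodes the enzyme that oxidises UDP-glucose to UDP-glucuronic acid, had 2240, 2211, 2952 and 3341 and a change of 0.49 ± 0.20. In both of these last genes, as in Uap1, the replicates differed by less than the groups did. In 76.1% of all tested genes the group difference was instead smaller than the larger replicate difference. The summed smooth muscle and fibroblast markers were also higher in both VEGFD arrays than in both Apex arrays (fibroblast sums of 16754, 15238, 17112 and 17910). Their genes did not share a direction, since in each list 4 tested genes were higher and 3 lower. The median change was 0.25 for the smooth muscle list and 0.046 for the fibroblast list. The part of these cells in the supply genes was not tested. Without Apex replicate 2, 4 of the 7 supply genes had a positive change, and with averaged probe sets 5 did.

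**Figure D4:**
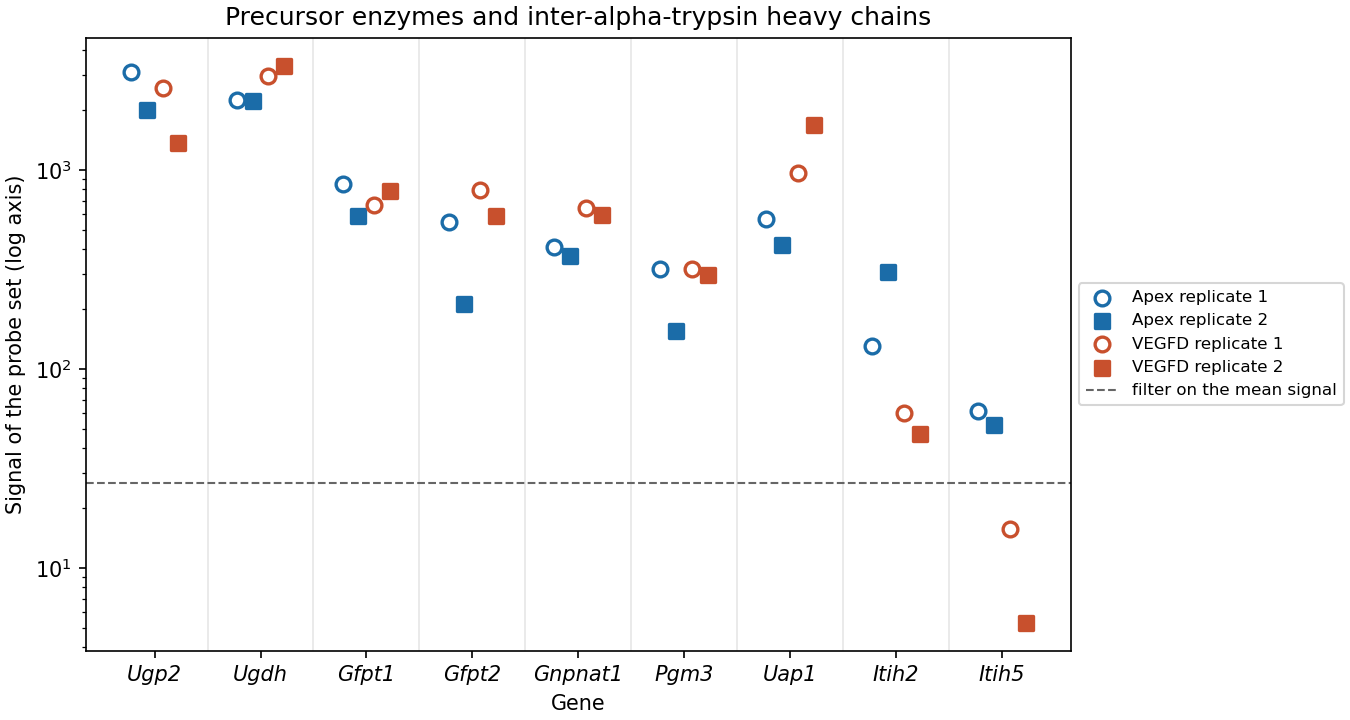
Signal on the 4 arrays (y axis, log scale) of the 7 precursor supply genes and of Itih2 and Itih5 (x axis), with Apex in blue, VEGFD in orange, replicate 1 as an open circle, replicate 2 as a filled square and the filter level of 26.7 as a dashed line. Both VEGFD points lie above both Apex points in Ugdh, Gfpt2, Gnpnat1 and Uap1, and below them in Itih2 and Itih5.

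Other matrix partners of hyaluronan were mostly dim, and 6 of 14 were tested. All 6 had a negative change, with a median of -0.19, or 4 of the 6 after median centring or quantile normalization and 3 of the 6 without Apex replicate 1. The median was -0.84 without VEGFD replicate 1, -0.68 without Apex replicate 2 and -0.065 without VEGFD replicate 2. In limma 0 of the 6 passed and 2 had an unadjusted p under 0.05. Those 2, Itih2 and Itih5, were also at least 2-fold apart without overlap, which held in the lower direction for 3.01% of all tested genes. Itih5 passed the filter only through the Apex arrays, where it was high, so its place in these counts and the p-value are partly set by the filter and are no support. Both genes encode heavy chains of the inter-alpha-trypsin inhibitor family. Itih2 had signals of 130, 309, 59.9 and 47.1 and a change of -1.65 ± 0.43 (SE; limma adjusted p = 0.822), which was -1.08 without Apex replicate 2. Itih5 had 61.4, 52.0, 15.7 and 5.30 and a change of -1.48 ± 0.35 (SE; limma adjusted p = 0.784). Its VEGFD signals lay below the filter level, so the size depended on the pseudocount, from -0.70 with 64 to -2.49 with 1. Adipocyte markers (sums of 6287, 8030, 3801 and 3109) and mesothelial markers (749, 1144, 602 and 316) were lower in both VEGFD arrays as well. So were the sums of keratinocyte and epithelial markers (625, 821, 539 and 164) and of leukocyte markers (1127, 1027, 735 and 734). Of the tested leukocyte markers, though, 2 were higher and 2 lower, and of the tested mesothelial markers 1 was higher and 3 lower. The part of any of these cells in the Itih signals was not tested.

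Other receptors were led by Stab1 and Lyve1, scavenger and uptake receptors of sinusoidal and lymphatic endothelium. Of 6 tested genes 1 was positive and 5 negative (2 and 4 after median centring), with a median of -0.15, and 0 passed or had an unadjusted p under 0.05 in limma. Stab1 and Lyve1 passed the filter only through Apex replicate 2, so their negative changes are partly set by the filter, and neither the count nor the median is support for a direction. Stab1 had signals of 16.5, 348, 3.30 and 21.4 and a change of -2.02 ± 1.14 (SE; limma adjusted p = 0.824), which was -0.27 without Apex replicate 2 and -1.26 with a pseudocount of 64. Lyve1 had 16.5, 151, 22.0 and 14.5 and a change of -1.12 ± 0.78, with 0.067 when Apex replicate 2 was left out and -2.30 when Apex replicate 1 was. Averaging its probe sets gave -1.77 without overlap between the groups (limma unadjusted p = 0.042, adjusted p = 0.822; over all alternatives the adjusted p ran from 0.447 to 0.999). Both representing probe sets were high in Apex replicate 2 alone, the array with the highest pan-endothelial sum (4312, against 457 to 1184 on the others). The part of endothelial or other cells in these signals was not tested.

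Other genes of hyaluronan breakdown gave 4 tested genes of 8 measured, 1 positive and 3 negative (2 and 2 with averaged probe sets), with a median of -0.24 (-0.0046 with averaged probe sets) and 0 passing or having an unadjusted p under 0.05 in limma. Gusb, the gene of the lysosomal enzyme beta-glucuronidase, had 716, 876, 401 and 717 and a change of -0.55 ± 0.34 (SE; limma adjusted p = 0.825), and -0.14 with averaged probe sets. The Gusb change was -0.96 when VEGFD replicate 2 was left out and -0.14 when VEGFD replicate 1 was. Cemip2, which encodes a cell surface protein linked to hyaluronan breakdown, had 153, 246, 114 and 545. Its change of 0.36 ± 0.71 was -0.70 without VEGFD replicate 2, and like Has2 it had its lowest and highest signal in the VEGFD arrays. The hyaluronidase genes Hyal3, Hyal4, Hyal5 and Spam1 were below the filter.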

How the data were processed

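RNA was measured on 4 Affymetrix mouse arrays, 2 per group, after one-cycle biotin labelling, per the labels' protocols. The values the authors deposited were probe set signals, a linear intensity. Their summary algorithm and scaling were not given in the sources used here, but every array had a mean of 150 after trimming 2% at each end. The platform annotation paired 34945 of 45101 probe sets with 1 gene and 932 with several. No genome build of the array design is given, so no gene positions are printed. Signals were used as log2(signal + 16), which understates changes of dim genes. Each gene was read from its probe set of highest mean signal, and genes with a mean of at least 26.7 were tested with limma 3.58.1 in R 4.3.3 with an intensity trend. Tested on simulated data of 11693 genes for the VEGFD against Apex comparison, the procedure called 0.20% of genes changed 2-fold, 25.8% changed 4-fold, 53.2% changed 8-fold and 70.7% changed 16-fold. A mean of 2 unchanged genes per run were called as well. The simulated noise was independent between genes, with no shift shared over an array, so these shares may not hold for the real arrays. The number of arrays limits the precision.

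The 8 genes and the gene lists were chosen with earlier results of these data known. Named genes were all 8, the 2 tested genes of largest change in each hyaluronan list where none passed, the 3 genes nearest in pattern to the gene of largest change, and 5 defining markers. Alternatives covered pseudocounts of 1 and 64, scaling between arrays, the filter, averaged probe sets, the variance trend, a replicate block and leaving out each array. Choosing the probe set by mean log2 value was added after seeing the data.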

Additional observations from a re-analysis of the deposited data

How the results depend on the processing

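None of the 6 hyaluronan genes passed an adjusted p of 0.05 in limma under any alternative that kept them. Cd44, Vcan and Tnfaip6 were kept in 14 alternatives, and Has1, Has2 and Hyal2 in 13. Of 81 values 74 kept their direction and 7 reversed. Hyal2 was 0.084 with median centring. With 1 array left out, Has1 ran from -1.46 to 0.72, Has2 from -0.67 to 1.17, Hyal2 from -0.39 to 0.31, Cd44 from -0.29 to 1.02, Lyve1 from -2.30 to 0.067, Cemip2 from -0.70 to 1.41 and Egfr from -0.085 to 1.10. The count of genes past an adjusted p of 0.05 in limma was 6 with the replicate number as a block and 0 to 369 with 1 array left out. The VEGFD arrays gave 369 (replicate 1 left out) and 4 (replicate 2 left out). None of the 6 hyaluronan genes passed with the block (adjusted p from 0.644 to 0.977). The labels do not say that same-numbered arrays pair, and over genes the replicate differences of the groups correlated at 0.19 with 2 pairs. The count 2-fold apart without overlap was 483, 231 with a pseudocount of 64, 256 with the stricter filter (a mean signal of at least 140.4) and 461 to 1393 with 1 array left out, the upper values being 1016 without Apex replicate 1 and 1393 without VEGFD replicate 1. Parts of these moves are built into the settings. A pseudocount of 64 shrinks log2 changes, most of all in dim genes, and the stricter filter leaves fewer genes (6838). With 1 array left out, 2 arrays against 1 overlap less often by chance than 2 against 2. Any further cause was not tested. No detection calls were used, so low signals such as those of Has3 have no stated limit against background.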

Other observations

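Among the matrix partners, Ptx3 encodes a pentraxin that joins Tnfaip6 protein and hyaluronan in the matrix around the ovulated egg. It was chosen after its values were seen. Its signals were 3480, 1099, 4011 and 754, so replicate 1 exceeded replicate 2 in both groups and the group means were close, with a log2 change of -0.16 ± 0.91 (SE of the limma fit). The order within the VEGFD arrays was the opposite of that of Tnfaip6 and Has2.

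Hmmr, which encodes a hyaluronan-binding protein that also acts on the mitotic spindle, was likewise chosen after its values were seen. Its 4 signals were 113, 180, 41.2 and 473, and its log2 change was 0.075 ± 0.99, beside a difference of 3.09 between the VEGFD arrays. As in Has1, Has2 and Cemip2, both the lowest and the highest of its 4 signals were in the VEGFD group.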
